A study of Mus musculus with 12 samples.

Results

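The 46 genes described here encode transport and metabolic proteins of the renal proximal tubule, and were chosen by name, as a list of genes known for that segment. All 46 were found among the 19564 genes listed for either of the sorted populations, 45 of them for the dimtdT and 46 for the brighttdT cells, since Hpd was listed for the brighttdT cells only. RNA was sequenced from glomerular endothelial cells (GEC) of C57BL/6 mice at 4 months of age that carried a tdTomato (tdT) reporter switched on by a Tek-Cre transgene. The mice were wild type (WT) or Alport mice with a Col4a5 knockout (AS), and from each of 3 WT and 3 AS mice a dimtdT and a brighttdT population were sorted, which gives 12 libraries in 4 groups of 3. Each group thus holds 3 separate animals, and the dimtdT and brighttdT libraries that carry the same number came from the same mouse. WT and AS mice both carried the Cre driver and the reporter, so that no group without them was compared, and the Tek promoter is also active in blood-forming cells. Renal cortex was minced, digested and sieved to obtain glomeruli before single cells were gated on size, on being single and on tdT signal.

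The proximal tubule is the segment that lies next to the glomerulus and reclaims most of what is filtered there. Its cells take up sodium, phosphate, glucose, bicarbonate and amino acids through carriers of the brush border, retrieve filtered protein through the receptors megalin and cubilin, secrete organic anions and cations, and burn fatty acids to pay for this work. They also make glucose, and their identity depends on the transcription factor Hnf4a. Most of these transcripts are known from that epithelium rather than from endothelial cells, and their counts were read as a measure of tubule RNA in each library and of its spread between mice. In RNA from a whole sorted population, fewer cells of a type and less RNA per cell cannot be told apart.

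Counts on genes ran from 11440169 to 15074909 per library, and no pair of replicates was the same library, since the chi-square of their counts was 29.5 to 104 per degree of freedom. Levels are given as CPM, counts scaled to one library size after edgeR's TMM method, and the values of mice 1, 2 and 3 are given in that order. Col4a5 was counted 771, 439 and 877 times in the WT-dimtdT and 51, 24 and 17 times in the AS-dimtdT libraries, against 158, 69 and 78 times in the WT-brighttdT and 43, 104 and 55 times in the AS-brighttdT libraries, so that it set the genotypes apart in the dimtdT but not in the brighttdT cells. The summed level of 14 endothelial markers was 17820 to 32800 CPM in the brighttdT libraries and 345 to 2194 CPM in the dimtdT libraries, and all 14 were detected in both. Of 12 leukocyte markers, all were detected in the dimtdT libraries, where they summed to 4095 to 6662 CPM in WT and 8537 to 10490 CPM in AS, while the 9 listed for the brighttdT cells summed to at most 79.6 CPM there. Endothelial marker RNA, which the label on the cells calls for, was thus present in every library but lower in the dimtdT libraries, and leukocyte marker RNA was higher there.

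The 45 genes listed for both populations took at most 1.53% of a library's counts, in the WT-dimtdT library of mouse 1, and at least 0.0293%, in the AS-dimtdT library of mouse 3. Their levels summed to 16690, 3558 and 3729 CPM in the WT-dimtdT and to 331, 1241 and 298 CPM in the AS-dimtdT libraries, so the genotypes did not overlap. In the WT-brighttdT libraries the sum was 7156, 1486 and 1923 CPM, and in the AS-brighttdT libraries it was 733, 1612 and 684 CPM, where the AS mouse with the highest sum stood above the WT mouse with the lowest. The group means were 7992 ± 7533, 624 ± 535, 3522 ± 3155 and 1010 ± 522 CPM (SD, n = 3 each), so that in 3 of the 4 groups the spread between mice was nearly as large as the mean. Without Cyp4b1, Gatm, Napsa, Slc7a7 and Slc7a8, which went apart from the rest and are described last, the sums were 15300, 3133 and 3275 CPM in WT-dimtdT, 69.4, 909 and 36.1 CPM in AS-dimtdT, 6208, 832 and 1327 CPM in WT-brighttdT, and 61.1, 1052 and 68.8 CPM in AS-brighttdT. These 5 genes were chosen after their values had been seen.

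**Figure D1:**
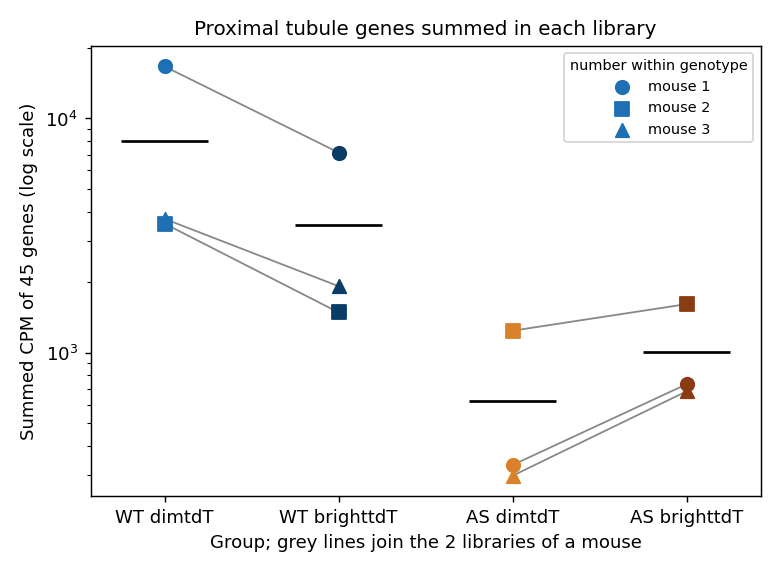
Summed level of the 45 proximal tubule genes listed for both populations, in CPM on a log scale, for each library, with black lines for group means and grey lines that join the libraries of a mouse. The lines go down from dimtdT to brighttdT in all 3 WT mice and up in all 3 AS mice, from between 298 and 1241 to between 684 and 1612 CPM, but without Cyp4b1, Gatm, Napsa, Slc7a7 and Slc7a8 the sum of AS mouse 1 went from 69.4 to 61.1 CPM.

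Per kilobase of exon, the highest level in the WT-dimtdT libraries belonged to Kap, the kidney androgen-regulated protein, at 1069 ± 1170 CPM per kilobase (SD, n = 3), ahead of Spp2, a secreted phosphoprotein, at 694 ± 702. Fbp1, the fructose-bisphosphatase of glucose synthesis, followed at 335 ± 319, then Slc34a1, the main brush border phosphate carrier, at 233 ± 218, and Cyp2e1, a cytochrome P450 that oxidises small solvents, at 167 ± 208. The lowest was Pdzk1, a scaffold that holds brush border carriers in place, at 1.32 ± 1.14 CPM per kilobase. The SDs were about as large as the means, with WT mouse 1 the highest for all of these genes, and within each of the 3 libraries Spp2 stood above Fbp1, Fbp1 above Slc34a1 and Slc34a1 above Cyp2e1. Kap stood above Spp2 in mice 1 and 2 but below it in mouse 3, with 268 against 368 CPM per kilobase, so that this pair was not set apart. Slc34a1 took the most counts of the 45 genes in each WT-dimtdT library, and 13.7% of their mean sum.

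One mouse in each genotype carried most of this RNA. WT mouse 1 had the highest level among all 6 mice for 43 of 45 genes in the dimtdT and for 43 of 46 in the brighttdT cells, and its summed level was 4.69 and 4.48 times that of WT mice 2 and 3 in dimtdT and 4.82 and 3.72 times in brighttdT. AS mouse 2 stood above the other AS mice for 44 of 45 genes in dimtdT, with Napsa as the exception, and for 44 of 46 in brighttdT, with Slc7a8 and Cyp4b1 as the exceptions. In the brighttdT cells AS mouse 2 exceeded WT mouse 2 for 37 of 46 genes and WT mouse 3 for 19 of 46. In the dimtdT cells it did so for 5 and 2 of 45. The mouse with the most of this RNA in one sort was thus also the one with the most in the other, in both genotypes.

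Most of the genes followed each other from library to library. Across the 12 libraries, a gene's log2 level was set against the log2 sum of the other genes. Cyp4b1, which went apart from the rest, was left out of every sum. The median Pearson correlation was 0.954, and 36 of 45 genes were above 0.9. The lowest was 0.179, for Napsa, followed by 0.297 for Cyp4b1 and 0.655 for Gatm. These points share their library and mouse, so the correlations are descriptions only. The profile over the 45 genes correlated with that of the WT-dimtdT library of mouse 1 at 0.866 to 0.952 in the WT libraries and those of AS mouse 2, but at 0.453 and 0.633 in the dimtdT and brighttdT libraries of AS mouse 3 and at 0.618 and 0.582 in those of AS mouse 1. Without the 5 genes that went apart, which were left out after their values had been seen, it was 0.784 to 0.971 in each other library, lowest in the AS-dimtdT library of mouse 3. In the AS-dimtdT library of mouse 3, 15 of 45 genes had 3 counts or fewer and 8 had none, and in the AS-dimtdT library of mouse 1 there were 13 and 4.

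**Figure D2:**
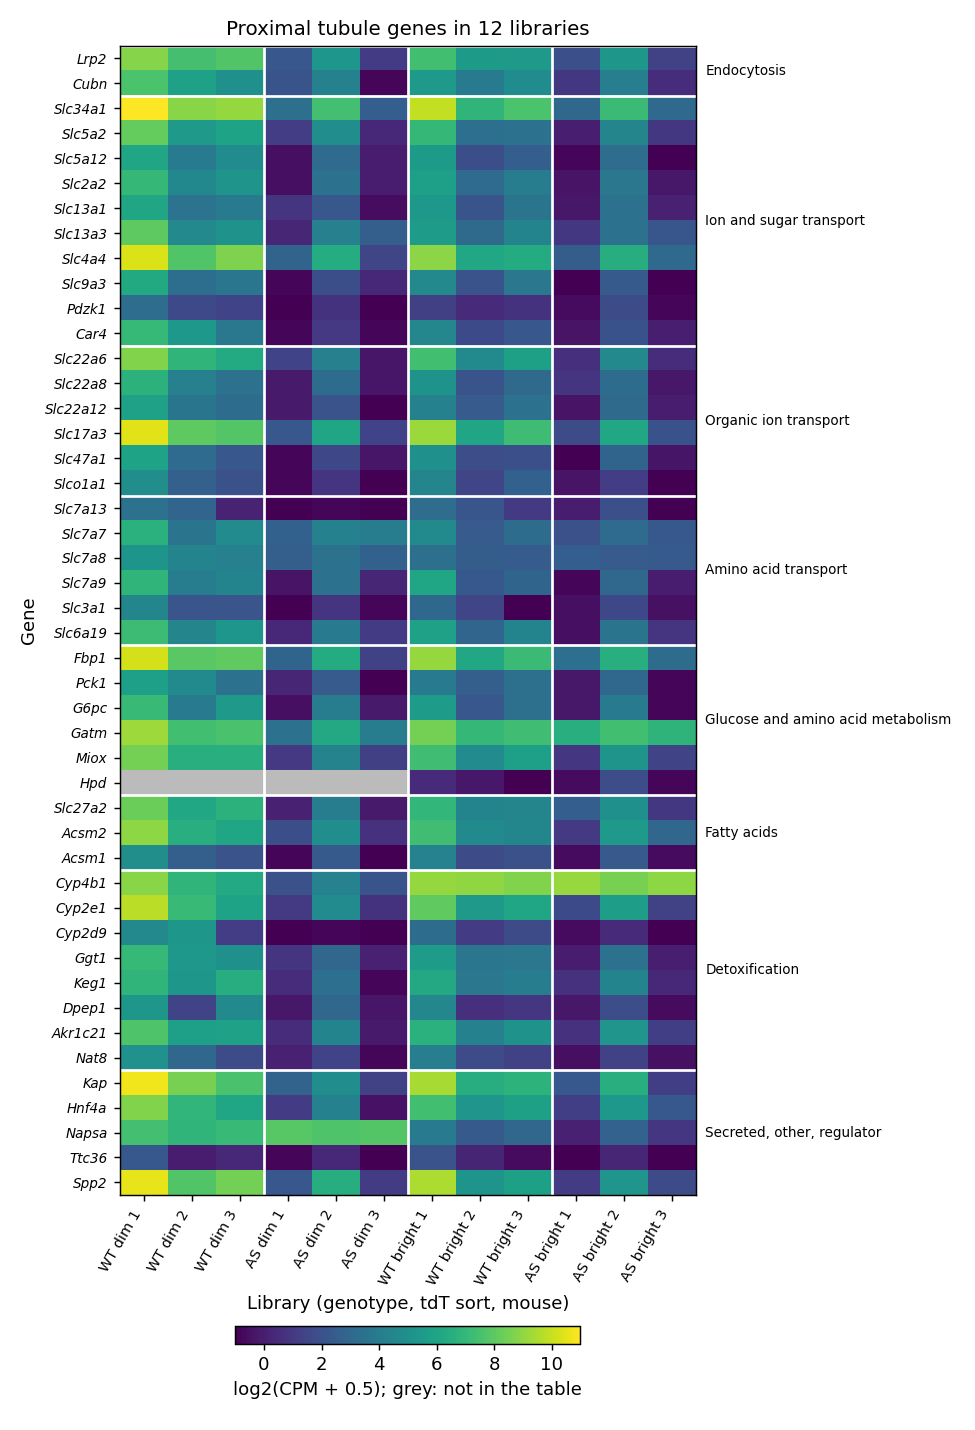
Level of the 46 proximal tubule genes in each of the 12 libraries, as log2(CPM + 0.5) in colour, with genes in rows by role and libraries in columns by genotype, sort and mouse. The columns of WT mouse 1 are the highest of the WT and those of AS mouse 2 the highest of the AS libraries for most genes, whereas Cyp4b1 is high in all brighttdT libraries and Napsa in all dimtdT libraries.

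The promoters of the genes were searched for the recognition letters of the proximal tubule factors Hnf4a and Hnf1. RefSeq sequences on GRCm38.p6, from 250 bases before to 50 after a gene's start, were at hand for 39 of the 46 genes. The letters CAAAGTCCA, or their reverse complement, were in promoters of 3 of the 39 genes (7.69%) and of 0.555% of all 27025 genes, and the letters GTTAATNAT were in that of 1 of 39 (2.56%) and of 0.94% of all genes. The 4 promoters are shown because they hold these letters, in capitals. Those of Pdzk1 (chr3:96829815-96830114, plus strand), Nat8 (chr6:85832230-85832529, minus strand, an enzyme that acetylates cysteine conjugates, in which the letters stand reversed) and Slc3a1 (chr17:85028097-85028396, plus strand) hold the Hnf4a letters. That of G6pc (chr11:101367466-101367765, plus strand), the phosphatase that releases free glucose, holds the Hnf1 letters.
Pdzk1: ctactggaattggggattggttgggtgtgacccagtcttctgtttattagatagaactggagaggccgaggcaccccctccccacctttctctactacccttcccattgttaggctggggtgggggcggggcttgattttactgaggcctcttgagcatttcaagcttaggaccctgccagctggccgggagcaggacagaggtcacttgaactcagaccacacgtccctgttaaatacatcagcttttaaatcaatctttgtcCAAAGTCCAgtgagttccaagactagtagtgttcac
Nat8: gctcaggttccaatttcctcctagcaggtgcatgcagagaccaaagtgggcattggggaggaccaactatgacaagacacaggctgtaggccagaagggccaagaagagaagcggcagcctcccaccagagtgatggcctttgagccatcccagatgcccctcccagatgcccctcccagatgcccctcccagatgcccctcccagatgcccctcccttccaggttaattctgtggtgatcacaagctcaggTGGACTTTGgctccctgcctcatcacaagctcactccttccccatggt
Slc3a1: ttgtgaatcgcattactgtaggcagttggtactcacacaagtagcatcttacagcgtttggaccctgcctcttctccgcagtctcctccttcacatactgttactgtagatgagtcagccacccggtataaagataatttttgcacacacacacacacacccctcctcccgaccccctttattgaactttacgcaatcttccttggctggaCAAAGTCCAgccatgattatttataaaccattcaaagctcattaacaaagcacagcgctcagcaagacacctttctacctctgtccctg
G6pc: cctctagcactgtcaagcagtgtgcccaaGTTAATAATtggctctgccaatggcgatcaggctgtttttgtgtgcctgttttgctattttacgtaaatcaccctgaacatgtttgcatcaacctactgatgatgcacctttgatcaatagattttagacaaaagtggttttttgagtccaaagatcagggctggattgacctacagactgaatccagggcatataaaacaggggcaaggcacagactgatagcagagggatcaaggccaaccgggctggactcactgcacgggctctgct
A match is a description of the letters and not evidence of binding, and its absence from the other promoters says only that these letters are not in those 300 bases.

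The first comparison asks whether the tubule RNA differed between AS and WT mice within the dimtdT cells. It did, towards lower levels in AS. Of the 43 genes with enough counts to be tested, 42 had a log2 fold change of AS over WT below 0, and 19 were past an adjusted p of 0.05 (edgeR's quasi-likelihood test, Benjamini-Hochberg method, all genes tested), each of them lower in AS. These were Car4, Cyp2d9, Cyp4b1, Gatm, Ggt1, Hnf4a, Kap, Keg1, Lrp2, Miox, Pck1, Slc13a1, Slc22a12, Slc22a6, Slc27a2, Slc3a1, Slc7a8, Slc9a3 and Slco1a1. None passed as higher, against 2.21% of all genes, where 1 gene, Napsa, had an unadjusted p under 0.05 and DESeq2 called 0. The median log2 fold change was -4.25, beside -0.02 over all 14637 genes tested. The WT libraries alone could meet the filter on low counts, as for Cyp2d9, counted 0 to 1 times in each AS-dimtdT library. Genes that entered this way could hardly come out other than lower in AS, so the filter partly sets the counts in that direction.

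Among all genes tested in the dimtdT cells, 6.42% passed as lower in AS by the adjusted p. At an unadjusted p under 0.05, 42 of the 43 genes were lower, against 15.9% of all genes. The groups did not overlap for 38 of the 43 in the lower direction, against 16.2% of all genes, and for 1, Napsa, in the higher direction, against 15% of all genes. The groups overlapped for Slc7a7, Dpep1, Acsm1 and G6pc. The count of 19 depended on single libraries and on the fit. It was 0 without the AS-dimtdT library of mouse 1 or of mouse 3, when at most 1 of all genes passed, 8 without that of WT mouse 1 or 2, beside 673 and 679 of all genes, 24 without that of WT mouse 3, beside 1373 of all genes, and 28 without that of AS mouse 2, beside 435 of all genes. The median log2 fold change was -3.01 without the library of WT mouse 1 and -6.95 without that of AS mouse 2, and the fold change of every tested gene but Slc7a8 and Napsa also moved by more than 1.5 times when 1 library was left out, that of Kap, for instance, from -7.45 to -4.52 and that of Lrp2 from -6.60 to -3.71 on the log2 scale. With edgeR's version 3 fit 4 of the 19 still passed, namely Car4, Cyp2d9, Cyp4b1 and Kap, when 452 of all genes passed as lower.

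**Figure D3:**
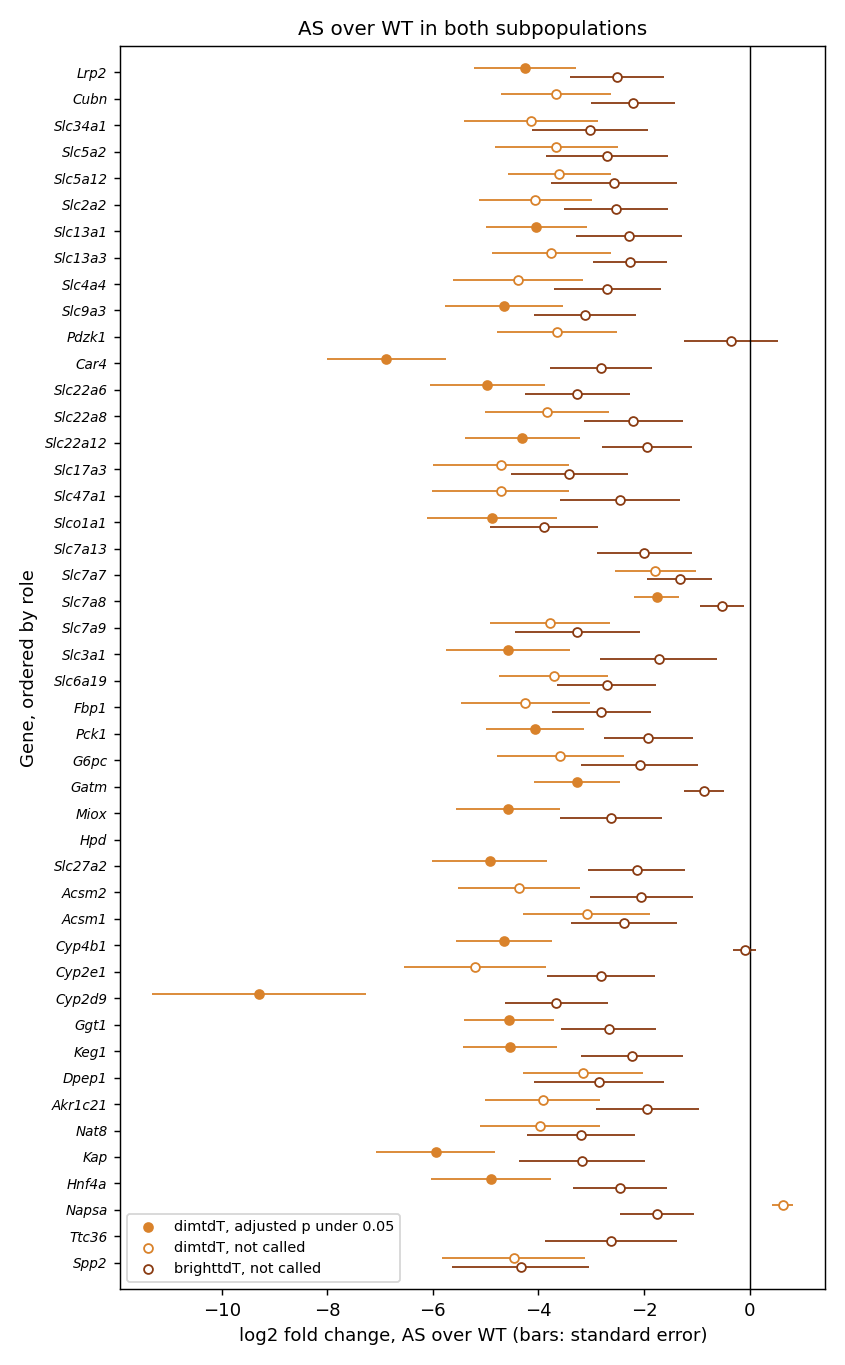
Log2 fold change of AS over WT for each proximal tubule gene in the dimtdT and brighttdT cells, with bars of 1 standard error and filled points for an adjusted p under 0.05. In dimtdT all tested genes but Napsa lie to the left of 0, 19 of them filled, and in brighttdT no point is filled.

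The second comparison asks the same of the brighttdT cells. All 45 genes tested had a log2 fold change below 0, with a median of -2.51 beside -0.03 over all 14396 genes tested, but 0 passed edgeR's quasi-likelihood test after adjustment, as did 0.264% of all genes in the lower direction. At an unadjusted p under 0.05, 34 of 45 were lower, against 11.9% of all genes, but only 7 with a robust fit, 13 with DESeq2, 17 with all 12 libraries in one fit, 21 with edgeR's version 3 fit and 27 without normalization beyond library size. After adjustment DESeq2 called 4 of the 45, beside 626 of all 14396 genes. The groups did not overlap for 6 genes, Ggt1, Slc22a6, Lrp2, Nat8, Slco1a1 and Cyp2d9, against 10.9% of all genes. AS mouse 2 decided much of this. Without its library 17 genes passed, beside 185 of all 15042, and the median was -5.23, whereas without that of WT mouse 1 none passed, beside 222 of all 14946, the median was -1.20 and 5 were lower at an unadjusted p under 0.05. The unadjusted count was 12 without the library of AS mouse 1 and 15 without that of AS mouse 3, and 1 gene passed after adjustment without that of WT mouse 2, beside 175 of all 14950.

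Both comparisons share no library, but the dimtdT and brighttdT libraries of a mouse do share the animal, so they are not independent samples of the genotypes. In Cubn, Slc34a1, Slc5a2, Pdzk1, Slc22a12, Slc27a2, Slc7a7, Slc3a1, Keg1, Napsa, Ttc36 and Cyp2d9, exons overlap another annotated gene on the other strand or, in Cyp2d9, a pseudogene on its own, and since the strand setting of the counting is not given in the sources used here, their counts are less certain. The genes are taken by role in the following, and their fold changes, standard errors (SE) and adjusted p values come from the edgeR fits already named.

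Endocytosis was represented by Lrp2 and Cubn, which encode megalin and cubilin, the paired receptors for filtered protein. Lrp2 (chromosome 2, 69424340 to 69586065, minus strand of GRCm38) stood at 456, 174 and 211 CPM in the WT-dimtdT and at 4.26, 39.2 and 1.60 CPM in the AS-dimtdT libraries. Every AS value lay below every WT value, and Lrp2 fell with a log2 fold change of -4.25 (SE 0.96, adjusted p = 0.0364), which was 19.1-fold. In the brighttdT libraries it stood at 163, 46.3 and 44.9 CPM in WT and at 3.35, 40.4 and 2.02 CPM in AS, again without overlap, with a log2 fold change of -2.51 (SE 0.90, adjusted p = 0.151). Cubn reached 32.0 to 192 CPM in WT-dimtdT and 0.0800 to 18.8 CPM in AS-dimtdT, and its log2 fold change of -3.66 (SE 1.04, adjusted p = 0.0657) did not pass.

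Of the 10 genes of ion and sugar transport tested in the dimtdT cells, 3 passed as lower, Car4, Slc9a3 and Slc13a1, the genotypes did not overlap for any of the 10, and the median log2 fold change was -4.05. Slc34a1 (chromosome 13, 55398187 to 55415592, plus strand), the most counted of them, was at 2266, 466 and 541 CPM in WT-dimtdT and at 10.3, 172 and 5.44 CPM in AS-dimtdT. Its log2 fold change of -4.15 (SE 1.27, adjusted p = 0.0799) did not pass although the groups were apart. The values within each genotype differed several fold. In brighttdT it stood at 953, 116 and 193 CPM in WT and at 7.77, 145 and 8.16 CPM in AS, where AS mouse 2 lay above WT mouse 2.

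Car4, the membrane-bound carbonic anhydrase that helps to reclaim bicarbonate, showed the largest fall of the group. It was at 130, 42.2 and 13.4 CPM in WT-dimtdT, and was counted 1, 18 and 1 times in AS-dimtdT, that is at most 1.5 CPM. The log2 fold change was -6.88 (SE 1.13, adjusted p = 0.0197), or 118-fold. In the brighttdT cells Car4 was at 23.0, 2.71 and 4.25 CPM in WT and at 0.285, 3.54 and 0.506 CPM in AS, with overlap. Slc9a3, the sodium-proton exchanger of the brush border, was at 76.5, 9.49 and 12.7 CPM in WT-dimtdT and was counted 1, 39 and 10 times in AS-dimtdT (log2 fold change -4.65, SE 1.12, adjusted p = 0.0427). In brighttdT it was at 24.5, 3.68 and 12.9 CPM in WT and at 0, 4.70 and 0 CPM in AS, where AS mouse 2 lay above WT mouse 2. It had the lowest log2 fold change of the group there, -3.12 (SE 0.97, adjusted p = 0.117).

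Slc13a1, a sodium-sulphate carrier, fell in dimtdT with a log2 fold change of -4.04 (SE 0.96, adjusted p = 0.0418), from 11.6 to 65.9 CPM in WT to 0.160 to 4.33 CPM in AS. The other members were Slc4a4, the basolateral sodium-bicarbonate carrier, at 211 to 1318 CPM in WT-dimtdT, Slc5a2, the glucose carrier SGLT2, at 43.6 to 285 CPM, and Slc2a2, the basolateral glucose carrier GLUT2, at 23.9 to 128 CPM. Slc5a12, which carries lactate with sodium, reached 14.5 to 66.7 CPM, and Slc13a3, a dicarboxylate carrier, 24.9 to 259 CPM. Their log2 fold changes in dimtdT ran from -4.39 to -3.60 with adjusted p from 0.0542 to 0.0886, so that none of these passed. Pdzk1 was scarce, at 2.13 to 9.33 CPM in WT-dimtdT and counted 0, 14 and 0 times in AS-dimtdT, and in brighttdT its log2 fold change was -0.35 (SE 0.88), the nearest to 0 of the group.

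Organic anions and cations are carried by 6 of the genes, all of them apart between the genotypes in dimtdT. Their median log2 fold change was -4.71, and 3 passed. Slc22a6, the basolateral organic anion transporter OAT1, was at 428, 116 and 79.0 CPM in WT-dimtdT and at 2.20, 18.1 and 0.320 CPM in AS-dimtdT (log2 fold change -4.96, SE 1.08, adjusted p = 0.0333), 31.2-fold lower. In brighttdT the groups were apart as well, with 165, 25.2 and 56.0 CPM in WT and 1.07, 24.3 and 0.939 CPM in AS, although mouse 2 of each genotype differed by little. Slco1a1, an organic anion transporter that is higher in male kidney, was at 30.2, 5.96 and 3.49 CPM in WT-dimtdT and was counted 1, 16 and 0 times in AS-dimtdT (log2 fold change -4.88, SE 1.23, adjusted p = 0.0417). In brighttdT it had the lowest log2 fold change of the group, -3.89 (SE 1.02, adjusted p = 0.0817), with 21.6, 2.36 and 6.21 CPM in WT and 0.285, 1.74 and 0 CPM in AS.

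Slc22a12, the urate exchanger URAT1, also passed in dimtdT with a log2 fold change of -4.30 (SE 1.09, adjusted p = 0.0482), from 8.93 to 57.8 CPM in WT to 0 to 3.75 CPM in AS. Slc17a3, a phosphate and urate carrier and the most counted of these genes, was at 223 to 1418 CPM in WT-dimtdT and 2.16 to 68.2 CPM in AS-dimtdT, with an adjusted p of 0.0595. Slc22a8, the anion transporter OAT3, and Slc47a1, the exporter of organic cations MATE1, had log2 fold changes of -3.84 and -4.72 with adjusted p of 0.0808 and 0.0586. In the brighttdT cells 5 of the 6 genes were lower at an unadjusted p under 0.05, all but Slc47a1.

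Of the 5 amino acid carriers tested in dimtdT, 2 passed as lower, Slc3a1 and Slc7a8, and the median log2 fold change was -3.71. Slc7a9 and Slc3a1 encode the light and heavy chains of the cystine carrier of the brush border. Slc7a9 was at 115, 15.7 and 20.9 CPM in WT-dimtdT and at 0.284, 10.6 and 0.720 CPM in AS-dimtdT (log2 fold change -3.78, SE 1.13, adjusted p = 0.0760), and in brighttdT it had the lowest value of the group, -3.27 (SE 1.18, adjusted p = 0.155). Slc3a1 was at 22.5, 3.97 and 4.00 CPM in WT-dimtdT and was counted 0, 15 and 1 times in AS-dimtdT, and it fell with a log2 fold change of -4.58 (SE 1.18, adjusted p = 0.0426). Slc6a19, the brush border carrier of neutral amino acids, reached 21.2 to 151 CPM in WT-dimtdT and 0.781 to 14.3 CPM in AS-dimtdT, with an adjusted p of 0.0620.

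Slc7a13, a cystine and acidic amino acid carrier of the last stretch of the proximal tubule, did not pass the filter on low counts in dimtdT. It was counted 207 times over the WT-dimtdT libraries and 1 time over the AS-dimtdT libraries, a pooled ratio of 232 with a 95% interval of 41.1 to 9200, which covers counting error only. In brighttdT it was at 9.15, 4.09 and 1.57 CPM in WT and at 0.428, 3.28 and 0 CPM in AS, with a log2 fold change of -1.99 (SE 0.90, adjusted p = 0.228).

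Fatty acid genes were Slc27a2, which takes up and activates very long chain fatty acids, and Acsm2 and Acsm1, mitochondrial enzymes that activate medium chain fatty acids. Slc27a2 was at 321, 72.8 and 105 CPM in WT-dimtdT and at 0.568, 16.2 and 0.400 CPM in AS-dimtdT, and it fell 30.3-fold (log2 fold change -4.92, SE 1.09, adjusted p = 0.0341). In brighttdT it was at 122, 21.0 and 21.4 CPM in WT and at 5.49, 31.5 and 1.44 CPM in AS, where AS mouse 2 passed the WT mice 2 and 3. Acsm2 had an adjusted p of 0.0541 in dimtdT, with 68.2 to 499 CPM in WT and 1.12 to 28.7 CPM in AS. Acsm1 was at 30.0, 5.70 and 3.74 CPM in WT-dimtdT and at 0.0710, 4.83 and 0 CPM in AS-dimtdT, so that AS mouse 2 overlapped WT, and its log2 fold change was -3.08 (SE 1.20, adjusted p = 0.149). In brighttdT Acsm1 had the lowest value of these genes, -2.38 (SE 1.01).

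Genes of glucose and amino acid metabolism included Fbp1, Pck1 and G6pc of glucose synthesis, Miox, which opens the ring of inositol, Gatm, the first enzyme of creatine synthesis, and Hpd of tyrosine breakdown. Miox was at 362, 91.7 and 91.2 CPM in WT-dimtdT and at 1.49, 20.1 and 1.92 CPM in AS-dimtdT, and fell 24-fold (log2 fold change -4.58, SE 0.98, adjusted p = 0.0320). Fbp1 was at 1198, 245 and 268 CPM in WT-dimtdT and at 6.82, 82.8 and 2.08 CPM in AS-dimtdT, with a log2 fold change of -4.25 (SE 1.22) that did not pass (adjusted p = 0.0670). In brighttdT Fbp1 was at 553, 73.7 and 147 CPM in WT and at 9.90, 95.9 and 8.95 CPM in AS.

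Pck1, which commits carbon to glucose synthesis, fell in dimtdT with a log2 fold change of -4.07 (SE 0.93, adjusted p = 0.0371), from 10.98 to 53.5 CPM in WT to 0 to 4.91 CPM in AS. G6pc was at 140, 14.5 and 44.5 CPM in WT-dimtdT and at 0.213, 16.7 and 0.400 CPM in AS-dimtdT, where AS mouse 2 again overlapped WT (adjusted p = 0.104). Hpd was counted 14, 5 and 0 times in WT-brighttdT and 2, 47 and 1 times in AS-brighttdT, too few for a test, and in both genotypes it was highest in the mouse that was highest for most of the genes.

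The secreted proteins Kap and Spp2 and the factor Hnf4a followed the carriers. Kap (chromosome 6, 133849851 to 133853762, minus strand) was at 1705, 373 and 190 CPM in WT-dimtdT and at 6.67, 28.9 and 2.08 CPM in AS-dimtdT, a 61.7-fold fall (log2 fold change -5.95, SE 1.13, adjusted p = 0.0244). In brighttdT it was at 688, 89.6 and 107 CPM in WT and at 4.49, 94.8 and 1.88 CPM in AS. Spp2 was at 1488, 213 and 365 CPM in WT-dimtdT and at 4.26, 89.6 and 1.60 CPM in AS-dimtdT (adjusted p = 0.0776), and in brighttdT it had the lowest log2 fold change of all 45 genes, -4.34 (SE 1.29, adjusted p = 0.107), with 728, 37.0 and 56.0 CPM in WT and 1.64, 37.7 and 2.82 CPM in AS. The log2 fold change of Spp2 in brighttdT ran from -7.02 to -1.74 when 1 library at a time was left out.

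Hnf4a was at 417, 117 and 67.3 CPM in WT-dimtdT and at 1.70, 18.9 and 0.240 CPM in AS-dimtdT, and it fell 29.9-fold (log2 fold change -4.90, SE 1.13, adjusted p = 0.0380). The brighttdT levels were 165, 37.6 and 56.0 CPM in WT and 1.85, 42.3 and 4.48 CPM in AS, with overlap. Ttc36, a protein with tetratricopeptide repeats, had the fewest counts of these genes, with 0.432 to 4.49 CPM in WT-dimtdT and 0 to 0.750 CPM in AS-dimtdT, and was not tested there.

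Detoxification and peptide-processing enzymes made up 8 genes, of which 4 passed in dimtdT, and all 8 had an unadjusted p under 0.05. Cyp2d9, a male-biased cytochrome P450, was at 24.9, 40.7 and 1.79 CPM in WT-dimtdT and was counted 0, 1 and 0 times in AS-dimtdT. The pooled ratio of WT to AS was 862 with a 95% interval of 154 to 34100 for counting error, and the adjusted p was 0.0404. Levels in brighttdT were 8.96, 1.66 and 2.81 CPM in WT and 0.143, 0.901 and 0 CPM in AS, without overlap (log2 fold change -3.66, SE 0.97, adjusted p = 0.0807). Cyp2e1 was at 877, 141 and 62.5 CPM in WT-dimtdT and at 1.56, 27.6 and 1.20 CPM in AS-dimtdT (log2 fold change -5.20, SE 1.35), with an adjusted p of 0.0518.

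Ggt1, which breaks down glutathione at the brush border, fell in dimtdT with a log2 fold change of -4.56 (SE 0.85, adjusted p = 0.0241), from 32.0 to 133 CPM in WT to 0.560 to 7.25 CPM in AS. Keg1, a glycine acyltransferase, fell with a log2 fold change of -4.53 (SE 0.89, adjusted p = 0.0263), from 40.3 to 116 CPM in WT to 0.0800 to 9.99 CPM in AS. Akr1c21, a steroid-reducing enzyme, and Nat8 had adjusted p of 0.0618 and 0.0647 and did not overlap between genotypes. Dpep1, the dipeptidase that acts after Ggt1, was at 40.0, 2.24 and 26.0 CPM in WT-dimtdT and at 0.355, 7.33 and 0.320 CPM in AS-dimtdT, with overlap.

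Kap, Slco1a1, Cyp2d9, Akr1c21, Slc22a12, Cyp4b1, Slc7a13 and Cyp2e1 formed a list of genes that respond to androgen in mouse kidney. Ddx3y, which lies on the Y chromosome, was counted 325 to 1217 times in every library, so Y-linked RNA was found in all 6 mice. Of the 8 genes, 7 were tested in dimtdT and 5 passed as lower in AS, beside 19 of the 43 genes and 6.42% of all genes. The median log2 fold change of the 7 was -4.88, beside -4.25 for the 43 genes, which include them. In brighttdT the median of the 8 was -2.405, beside -2.514 for the 45 genes tested. Whether these genes differed from the others was not tested.

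The third comparison sets brighttdT against dimtdT in WT mice, and it depended on whether the libraries were paired by mouse. Without pairing, 2 of 44 genes tested passed as lower in brighttdT, Napsa and Slc7a8, against 11.5% of all 14247 genes, and 0 as higher, against 13.8% of all genes, with 0 at an unadjusted p under 0.05 and 0 by DESeq2. With the mouse as a replicate block, 27 of 44 passed as lower, against 15.1% of all genes, and 1, Cyp4b1, as higher, against 16.1% of all genes. Within a mouse, 44, 43 and 38 of the 45 genes were lower in the brighttdT library in WT mice 1, 2 and 3, and the median log2 ratio was -1.34, -1.64 and -0.82. The summed level in brighttdT was 0.429, 0.418 and 0.516 times that in dimtdT. Slc34a1, for instance, went from 2266 to 953, from 466 to 116 and from 541 to 193 CPM (log2 fold change -1.26, adjusted p = 0.301, and with the replicate block -1.49, adjusted p = 0.00203).

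Lrp2 was lower in brighttdT in each WT mouse and the groups did not overlap (log2 fold change -1.62, SE 0.56, adjusted p = 0.0637, and 0.00144 with the replicate block). Leaving out the WT-brighttdT library of mouse 1 gave 17 of 44 genes that passed as lower without pairing, beside 1482 of all 14595, and leaving out the WT-dimtdT library of mouse 3 gave 6 of 45, beside 1333 of all 14764. Leaving out that of mouse 1 in dimtdT gave 1 lower and 1 higher, beside 1639 and 1796 of all 14735. The median log2 fold change of all genes of the list then went from -1.23 to -0.11. Leaving out the WT-brighttdT library of mouse 2 or of mouse 3 gave 1 lower, beside 1131 of 14568 and 1074 of 14655.

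In AS mice the same comparison gave another picture. Of 30 genes tested, 2 passed as lower in brighttdT, Napsa and Slc7a7, against 26.5% of all 14052 genes, and 2 as higher, Cyp4b1 and Gatm, against 28.6%. Gatm did not pass with DESeq2 or with a robust fit. With the mouse as a replicate block, 2 passed as lower, against 26.7% of all genes, and 4 as higher, Hnf4a and Slc27a2 beside the former pair, against 28.5%. These shares lie below those of all genes. The median log2 fold change of 0.36 had no stable sign, as it ran from -2.10 without the AS-brighttdT library of mouse 2 to 2.83 without the AS-dimtdT library of mouse 2. Without the latter, 7 of 30 genes passed as higher, beside 3737 of all 14398 genes tested. The lower count was 1 or 2 whichever library was left out, beside 3133 to 3730 of all genes. Within a mouse, 20, 29 and 27 of the 45 genes were higher in brighttdT in AS mice 1, 2 and 3, and the summed level was 2.21, 1.3 and 2.29 times that in dimtdT. Without the 5 genes named above the sums went from 69.4 to 61.1, from 909 to 1052 and from 36.1 to 68.8 CPM.

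**Figure D4:**
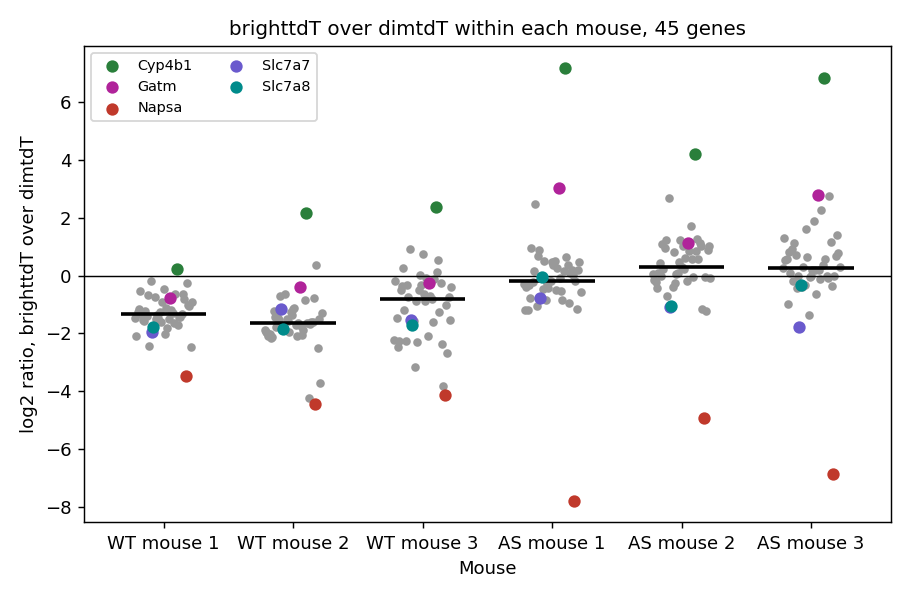
Log2 ratio of brighttdT over dimtdT within each mouse for the 45 proximal tubule genes listed for both populations, with a black line at the median and the 5 genes that went apart in colour. The medians are -1.34, -1.64 and -0.82 in WT mice 1 to 3 and -0.19, 0.29 and 0.27 in AS mice 1 to 3, while Cyp4b1 is the highest and Napsa the lowest gene in every mouse.

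Whether the AS over WT difference itself differed between brighttdT and dimtdT was tested as an interaction in one fit of all 12 libraries. Of 45 genes tested, 44 had a value above 0, with a median of 1.74 beside 0.13 over all 15084 genes, and 1 passed, Cyp4b1, against 2.96% of all genes. None passed as lower in edgeR or DESeq2, and 1, Napsa, had an unadjusted p under 0.05 in that direction. With the mouse as a replicate block 13 passed as higher, against 4.28% of all genes, namely Acsm2, Akr1c21, Car4, Cyp4b1, Fbp1, Gatm, Hnf4a, Keg1, Lrp2, Miox, Slc27a2, Slc34a1 and Slc4a4. For 12 of these 13 a smaller difference in brighttdT than in dimtdT passed the test only when the libraries were paired by mouse. Within mice, 9 of 45 genes were lower in brighttdT in every WT mouse and higher in every AS mouse, against 2.1% of all genes. The median interaction was -1.13 without the AS-brighttdT library of mouse 2, when Napsa passed as lower, beside 123 of all 15317 genes. Without the AS-dimtdT library of mouse 2 the median was 4.09, when 2 genes passed as higher, beside 303 of all 15317. The median interaction was 0.60 without the WT-dimtdT library of mouse 1 and 2.96 without the WT-brighttdT library of that mouse.

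A few genes did not go with the rest. Cyp4b1 (chromosome 4, 115624725 to 115647723, minus strand), a cytochrome P450 that hydroxylates fatty acids and is abundant in lung as well as in kidney, was at 466, 114 and 81.0 CPM in WT-dimtdT and at 3.41, 19.7 and 3.84 CPM in AS-dimtdT, and there it fell with a log2 fold change of -4.65 (SE 0.91, adjusted p = 0.0258), much as the other genes. Among brighttdT libraries it stood at 543, 514 and 417 CPM in WT and at 571, 376 and 492 CPM in AS, with a log2 fold change of -0.10 (SE 0.22, adjusted p = 0.839). The brighttdT levels of all 6 mice thus lay between 376 and 571 CPM. In AS mice Cyp4b1 was 54.8-fold higher in brighttdT than in dimtdT (log2 fold change 5.78, SE 0.58, adjusted p = 1.70e-05). The interaction was 4.58 (SE 0.92, adjusted p = 0.0157, and 0.0165 with the replicate block).

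Gatm (chromosome 2, 122594467 to 122611303, minus strand) was at 609, 164 and 190 CPM in WT-dimtdT and at 10.8, 75.2 and 15.8 CPM in AS-dimtdT, and fell 9.63-fold (adjusted p = 0.0460). Its levels in brighttdT were 354, 126 and 157 CPM in WT and 91.6, 163 and 112 CPM in AS, with a log2 fold change of -0.86 (SE 0.38, adjusted p = 0.223), the nearest to 0 after Cyp4b1, Pdzk1 and Slc7a8. Within AS mice it was 3.67-fold higher in brighttdT than in dimtdT (log2 fold change 1.88, SE 0.60, adjusted p = 0.0226), with no overlap. This difference did not pass with DESeq2 or with a robust fit. In the brighttdT libraries the 14 endothelial markers summed to 25380 to 32800 CPM in AS and 17820 to 26090 CPM in WT, and the part of endothelial RNA in the levels of Cyp4b1 and Gatm was not tested.

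Napsa (chromosome 7, 44572380 to 44586862, plus strand), an aspartic protease of lysosomes, was at 172, 115 and 138 CPM in WT-dimtdT and at 236, 207 and 220 CPM in AS-dimtdT. Of the 43 genes it alone stood higher in every AS than in every WT library, with a log2 fold change of 0.63 (SE 0.20, adjusted p = 0.0897) that did not pass. The brighttdT levels were 15.0, 4.79 and 7.38 CPM in WT and 0.570, 6.24 and 1.37 CPM in AS. It was 14.6-fold lower in brighttdT than in dimtdT in WT (log2 fold change -3.86, SE 0.43, adjusted p = 0.000263) and 77.3-fold lower in AS (log2 fold change -6.27, SE 0.52, adjusted p = 4.45e-06). The leukocyte markers moved the same way, from 4095 to 10490 CPM in dimtdT to 36.1 to 79.6 CPM in brighttdT, and their part in the level of Napsa was not tested.

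Slc7a7 and Slc7a8 are light chains of basolateral amino acid exchangers that are also made outside the kidney. Slc7a7 was at 102, 11.74 and 26.7 CPM in WT-dimtdT and at 6.18, 19.1 and 16.2 CPM in AS-dimtdT, with overlap (log2 fold change -1.78, SE 0.77, adjusted p = 0.184), and in AS mice it fell from dimtdT to brighttdT (log2 fold change -1.28, SE 0.48, adjusted p = 0.0449, and 0.0580 with edgeR's version 3 fit). Slc7a8 was at 36.8, 20.8 and 18.2 CPM in WT-dimtdT and at 5.68, 10.9 and 6.08 CPM in AS-dimtdT, a 3.39-fold fall (log2 fold change -1.76, SE 0.43, adjusted p = 0.0435). In brighttdT Slc7a8 was at 10.2, 5.34 and 5.16 CPM in WT and at 5.42, 4.96 and 4.77 CPM in AS (log2 fold change -0.52, SE 0.42), and in WT mice it was lower in brighttdT than in dimtdT (log2 fold change -1.77, SE 0.46, adjusted p = 0.0207).

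**Figure D5:**
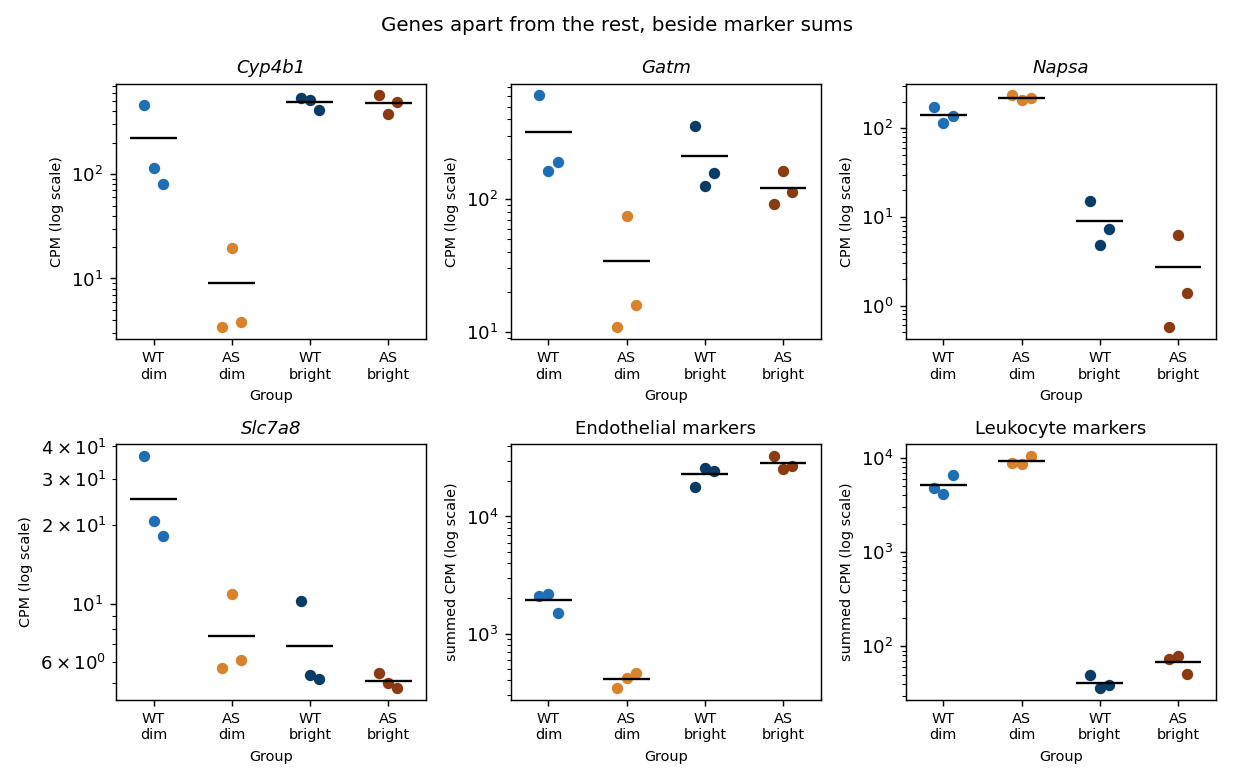
Level of Cyp4b1, Gatm, Napsa and Slc7a8 in each library, beside the summed levels of 14 endothelial and 12 leukocyte markers, all in CPM on a log scale, with black lines at the group means. Cyp4b1 lies between 376 and 571 CPM in all 6 brighttdT libraries, and Napsa between 115 and 236 CPM in all 6 dimtdT libraries and at most at 15.0 CPM in the brighttdT libraries.

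Of 52 further genes of the proximal tubule listed, 45 were in each table. They summed to 2572 to 11850 CPM in WT-dimtdT, 252 to 1004 CPM in AS-dimtdT, 833 to 5095 CPM in WT-brighttdT and 194 to 1202 CPM in AS-brighttdT. In the dimtdT cells 18 of 39 tested were lower in AS, against 6.42% of all genes, and the median log2 fold change of the 39 was -4.25. Those lower included Acy3, an aminoacylase, with -5.57 (adjusted p = 0.0229), Slc17a1, a phosphate and urate carrier, with -5.01 (adjusted p = 0.0442), and Sord, the sorbitol dehydrogenase, with -3.48 (adjusted p = 0.0263). Others went apart, since Anpep, a brush border aminopeptidase, had a log2 fold change of 0.85 (adjusted p = 0.398), Haao, an enzyme of tryptophan breakdown, one of 0.80 (adjusted p = 0.461), Slc15a2, a peptide carrier, one of 0.07 (adjusted p = 0.935) and Clcn5, an endosomal chloride-proton exchanger, one of -0.61 (adjusted p = 0.498). In brighttdT 0 of 39 passed in edgeR, against 0.264% of all genes in the lower direction. At an unadjusted p under 0.05, 27 were lower, against 11.9% of all genes, and the median was -2.26. Aqp1, the water channel of proximal tubule that endothelial cells also make, had a log2 fold change of -4.56 in dimtdT (adjusted p = 0.0263) and of -0.27 in brighttdT (adjusted p = 0.558).

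Among markers of other cells, those of the distal nephron were mostly lower in AS too. Of 11 distal nephron markers, 10 were in each table, and they summed to 746 to 1843 CPM in WT-dimtdT, 43.0 to 277 CPM in AS-dimtdT, 395 to 543 CPM in WT-brighttdT and 24.7 to 236 CPM in AS-brighttdT. In dimtdT 6 of 8 tested were lower in AS, against 6.42% of all genes, and the median log2 fold change of the 8 was -3.09. Umod, the uromodulin of the thick ascending limb, was counted 1272, 2430 and 1392 times in WT-dimtdT and 263, 325 and 15 times in AS-dimtdT. Of 14 endothelial markers 10 were lower in AS-dimtdT, against 6.42% of all genes, with a median of -2.22. There 3 of 12 leukocyte markers were higher, against 2.21% of all genes, with a median of 0.40. The 7 podocyte markers summed to 485 to 1080 CPM in WT-dimtdT and 419 to 466 CPM in AS-dimtdT, where 2 of 7 were lower, against 6.42% of all genes. In brighttdT they summed to 104 to 215 CPM in WT and 277 to 459 CPM in AS, without overlap and in the other direction from the tubule genes, and all 7 had a log2 fold change above 0, with a median of 1.04, but 0 passed in edgeR and 6 had an unadjusted p under 0.05, against 9.98% of all genes in that direction. The part of these other cell types in the lower share of proximal tubule RNA was not tested.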

How the data were processed

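RNA was sequenced from dimtdT and brighttdT GEC of 3 WT and 3 AS mice. The authors trimmed reads (cutadapt, Trimmomatic), checked them with FastQC 0.11.5, aligned them with STAR 2.6.0c to GRCm38, and deposited raw counts per gene with RPKM values in 1 table per sort. The deposited RPKM values served only to choose which genes are given library by library. Columns with the authors' fold changes and p-values were not used, and ERCC rows (92 per table) were left out. Counts were fitted with edgeR 4.0.16 in R 4.3.3 (TMM, filterByExpr, quasi-likelihood F test, Benjamini-Hochberg threshold 0.05), AS against WT within a sort, brighttdT against dimtdT within a genotype, and their interaction over all 12 libraries. DESeq2 1.42.0 was an alternative, as were other normalizations, no filter on low counts, a replicate block, fits of all libraries and the omission of each library. The code was tested on simulated data. CPM per kilobase used merged exon lengths of GENCODE M21.

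The quasi-likelihood fit was first run with edgeR's version 3 method. Since its calls differed from an earlier account of these data, 12 settings were run per table, and the version 4 method was taken after the calls of all had been seen. The genes, lists and tests were likewise chosen with earlier results of these data known.

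Library by library values are given for the gene of each role with the highest mean RPKM in WT-dimtdT, those with the largest absolute log2 fold change of AS over WT in dimtdT and in brighttdT, and genes that went against the rest. Depth was 11440169 to 15074909 counts per library, and intervals cover counting error only. Mouse numbers in the labels pair the sorts. The deviations of same-mouse libraries from their group means correlated over 15100 genes with r of 0.274, 0.216 and 0.102 in WT and 0.0798, 0.385 and 0.175 in AS mice 1 to 3. Between different mice r was -0.210 to 0.0135 in WT and -0.287 to 0.189 in AS, so that in AS mice 1 and 3 the same-mouse r was not the highest, and the pairing there rests on the labels.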

Additional observations from a re-analysis of the deposited data

Results flagged for a closer look

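Cyp4b1 differed between the sorts in its AS over WT effect by a log2 value of 4.58 (standard error 0.92), which passed edgeR's quasi-likelihood test with an adjusted p of 0.0157 (0.0165 with the mouse as a replicate block). For 9 further genes of 45, against 2.1% of all 15084 genes, every WT mouse was lower and every AS mouse higher in brighttdT than in dimtdT, and none of these passed the interaction test without pairing by mouse. The interaction with the adjusted p by edgeR, first without and then with the replicate block, was 4.12 for Car4 (adjusted p = 0.257 and 0.0225), 2.83 for Slc27a2 (adjusted p = 0.373 and 0.00813) and 2.45 for Gatm (adjusted p = 0.177 and 0.0120). It was 2.48 for Hnf4a (adjusted p = 0.446 and 0.0412), 2.35 for Keg1 (adjusted p = 0.463 and 0.0426), 2.02 for Akr1c21 (adjusted p = 0.572 and 0.0271) and 1.49 for Fbp1 (adjusted p = 0.689 and 0.0284). It was 3.33 for Pdzk1 (adjusted p = 0.297 and 0.0774) and 2.90 for Slc3a1 (adjusted p = 0.487 and 0.165), which did not pass in either fit.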

How the results depend on the processing

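In the dimtdT cells 19 genes were lower in AS, beside 939 of all 14637 genes. The count was 11 with no filter on low counts, beside 749 of 17811, and 4 with edgeR's version 3 fit, beside 452. It was 25 with DESeq2, beside 1551, and 30 with all 12 libraries in one fit, beside 1570 of 15084. When 1 library was left out it was 0 to 28, beside 0 to 1373, with a median log2 fold change from -6.95 to -3.01. Over 12 quasi-likelihood settings the count was 4 to 19 in dimtdT, beside 411 to 939 of all genes, and 0 in brighttdT, beside 0 to 94. In brighttdT 0 passed, beside 38 of all 14396 genes as lower. It was 4 with DESeq2, beside 626, and 0 to 17, beside 0 to 222, when 1 library was left out. WT and AS libraries share only a replicate number, with correlations of same-numbered deviations between -0.151 and 0.124. A replicate block on that number left 4 lower in dimtdT, beside 431 of all genes. For brighttdT over dimtdT in WT, the count of lower genes was 7 with DESeq2, beside 2020 of all 14247 genes. With all 12 libraries it was 4, beside 2635 of 15084, and with the replicate block 27, beside 2156. It was 1 to 17, beside 1074 to 1639, when 1 library was left out. The count of higher genes was 1 with the block, beside 2288, and 0 to 1, beside 1460 to 1796, when 1 library was left out. In AS 1 was lower with no filter, version 3 or all 12 libraries, beside 3153 to 3685 of all genes. When 1 library was left out 1 to 2 were lower, beside 3133 to 3730. There, 1 was higher with DESeq2 or a robust fit, Cyp4b1 and not Gatm, beside 3804 and 4031 of all genes. It was 4 with the replicate block, beside 4004, and 1 to 7, beside 3518 to 3760, when 1 library was left out. The median log2 fold change ran from -2.10 to 2.83. The interaction was higher for 2 genes with DESeq2, beside 830 of all 15084, and for 13 with the replicate block, beside 646. When 1 library was left out it was higher for 1 to 2, beside 223 to 692. It was then lower for 0 to 1, beside 29 to 195, with a median from -1.13 to 4.09. When 1 library was left out, AS over WT in brighttdT ran from -0.26 to 0.061 for Cyp4b1 and from -3.60 to 0.16 for Pdzk1. The interaction ran from -0.055 to 5.06 for Hnf4a, -1.34 to 5.25 for Akr1c21, -0.80 to 4.93 for Keg1, -0.043 to 8.57 for Pdzk1 and -0.70 to 4.06 for Fbp1. Without Cyp4b1, Gatm, Napsa, Slc7a7 and Slc7a8, chosen after seeing the data, the mean summed level in AS-brighttdT was 393.9 CPM in place of 1010. The version 3 and robust fits were also added after seeing the data, and the cause of these changes was not tested. Low counts limit the AS-dimtdT values, where up to 15 of 45 genes had 3 counts or fewer in a library.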
